A study of Mus musculus with 22 samples.

Results

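The genes of dopamine supply, dopamine reception and the striatal neurons that respond to dopamine were examined in the right brain hemisphere of mice of high and low social rank. They were 9 genes, chosen by name from the 24421 rows shared by both deposited count tables, with earlier results of these data known. Th and Slc6a3 stand for the supply of dopamine, Drd2 and Drd3 for its receptors, and Ppp1r1b, Adora2a, Rgs9, Pde10a and Tac1 for the projection neurons of the striatum.

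Dopamine is made by midbrain neurons whose axons fill the striatum and is taken back into them by a transporter. Most striatal neurons are projection neurons of either a direct or an indirect output pathway, and dopamine acts on them through receptors that raise or lower cyclic AMP. The striatum selects actions and weighs reward, and dopamine transmission there has often been studied in relation to dominance.

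All mice were C57B6/J OlaHsd, without genetic change or drug, group-housed with mice of their own sex. Rank within a home cage was set by the tube test at 10 to 12 weeks of age, in which a mouse loses when it is pushed back out of a tube. Total RNA of the right hemisphere was sequenced from 7 dominant and 7 submissive males, and from 4 dominant and 4 submissive females. Each cage gave 1 dominant and 1 submissive mouse, and both are named here by the number of their cage, males 1 to 7 and females 1 to 4. The library names give females 1 and 2 a cage number and call the groups of females 3 and 4 Gr1 and Gr2. Some females of middle rank were regrouped and tested again before tissue was taken, and the labels do not say which. Cage mates were killed together. Males and females were sequenced as separate library sets and counted in separate tables, so sex, library set and table cannot be told apart. A hemisphere holds many regions, and in such bulk tissue fewer cells of a type and less RNA per cell cannot be told apart.

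Each library held 12403943 to 16488762 counted reads. Levels are given as CPM, reads scaled to a common library size over all 22 libraries. The 19 further striatal genes summed to 1988 to 2422 CPM over the 22 libraries, and none of them was at 0 throughout a group. Some of these genes, such as Foxp1, are also expressed by cortical neurons. The library of dominant male 1 stood apart, with 8.10 CPM summed over 5 cerebellar markers against 226 to 509.8 CPM in the other 21, and that of submissive female 3 had 22.6 CPM over 4 pituitary markers against 1.26 to 3.41 CPM. Results that rest on these libraries are given with and without them.

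The promoters of the supply genes are shown because Th and Slc6a3 moved together between females and males. Th, tyrosine hydroxylase, makes the precursor of dopamine and is the rate-limiting enzyme of its synthesis. It lies on the minus strand of chromosome 7 at 142892776 to 142899966 (mm10), with 1757 exon bases. Slc6a3, the dopamine transporter, lies on the plus strand of chromosome 13 at 73536747 to 73578672, with 3456 exon bases. The windows reach from 250 bases before to 50 after the RefSeq start (GRCm38.p6), and span chr7:142899946-142900245 on the minus strand and chr13:73536497-73536796 on the plus strand. Capitals mark the cyclic AMP response element TGACGTCA and the GC box GGGCGG on either strand, where it reads CCGCCC on the other.
Th: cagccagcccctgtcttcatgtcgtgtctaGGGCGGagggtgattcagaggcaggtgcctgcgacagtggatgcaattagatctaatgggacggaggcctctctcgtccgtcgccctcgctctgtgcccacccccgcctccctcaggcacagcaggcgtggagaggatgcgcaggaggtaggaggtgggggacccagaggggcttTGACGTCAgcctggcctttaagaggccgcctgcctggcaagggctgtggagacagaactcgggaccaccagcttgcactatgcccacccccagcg
Slc6a3: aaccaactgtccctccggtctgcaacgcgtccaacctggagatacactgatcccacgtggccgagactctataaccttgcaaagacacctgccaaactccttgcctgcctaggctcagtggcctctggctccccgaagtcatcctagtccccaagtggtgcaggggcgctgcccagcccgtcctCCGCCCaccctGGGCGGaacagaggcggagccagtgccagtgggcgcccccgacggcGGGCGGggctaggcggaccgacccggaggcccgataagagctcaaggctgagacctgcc
The Th window held TGACGTCA 45 bases before the start, a match found in 1.79% of 32851 promoter windows. It held 1 GGGCGG and the Slc6a3 window held 3, a motif present in 35.7% of all windows. TATAAA, searched on both strands and found in 13.6% of windows, was in neither. Of the 9 genes, 7 had a window in this table.

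Compared per kilobase of exon, which is the scale on which different genes can be set side by side, Ppp1r1b was highest at 65.2 ± 7.40 CPM per kb (SD, n = 22). Ppp1r1b encodes DARPP-32, the phosphoprotein through which dopamine and cyclic AMP steer protein phosphatase in striatal neurons. Tac1, the precursor of substance P and a marker of the direct pathway, followed at 46.3 ± 3.69 CPM per kb, then Pde10a, a cyclic nucleotide phosphodiesterase of the striatum, at 32.9 ± 3.34 CPM per kb. Adora2a, an adenosine receptor of indirect pathway neurons, reached 10.6 ± 1.11 CPM per kb. Each of these 4 genes lay above the next in all 22 libraries.

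Below them the order was less separated. Rgs9, a brake on G protein signals whose long form is striatal, had 8.34 ± 0.980 CPM per kb (SD, n = 22) and exceeded Th in 18 of 22 libraries. Th had 7.38 ± 1.32 CPM per kb and exceeded Drd2, the D2 receptor found on indirect pathway neurons and on dopamine neurons themselves, in 16 of 22. Drd2 had 6.62 ± 0.590 CPM per kb and exceeded Slc6a3, at 5.98 ± 1.04 CPM per kb, in 15 of 22. The places of Rgs9, Th, Drd2 and Slc6a3 were therefore not settled beyond the spread between mice. Drd3, the D3 receptor of the ventral striatum, was lowest in every library at 0.416 ± 0.166 CPM per kb.

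The remaining genes lie at chromosome 9, 49340662 to 49407214 (Drd2), chromosome 16, 43762242 to 43822839 (Drd3), chromosome 11, 98348738 to 98357795 (Ppp1r1b), chromosome 10, 75316877 to 75334792 (Adora2a), chromosome 11, 109225355 to 109298181 (Rgs9), chromosome 17, 8526801 to 8986648 (Pde10a) and chromosome 6, 7555071 to 7562973 (Tac1). Ppp1r1b shares 164 exon bases with 1700003D09Rik on the opposite strand, and the strand setting of the counting is not given in the sources used here. 1700003D09Rik itself had 0 to 2 reads per library. No other member shares exon bases with another gene.

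Counting error set the precision of the scarce genes. Drd3 was represented by 3 to 12 reads per library, and its coefficient of variation of 36.01% over 14 males and 40.0% over 8 females was about that of counting alone, 36.3% and 41.0%. Drd2 varied by 7.40% over males, where counting alone gives 8.23%. Pde10a varied by 9.59% over males and 10.3% over females against 1.61% and 1.57% from counting, and Rgs9 by 13.1% and 8.67% against 3.15% and 3.03%. Differences between mice in Pde10a and Rgs9 were thus well beyond read depth, while those in Drd3, in male Drd2 and in female Adora2a (4.26% against 4.93% from counting) were not distinguishable from it.

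**Figure D1:**
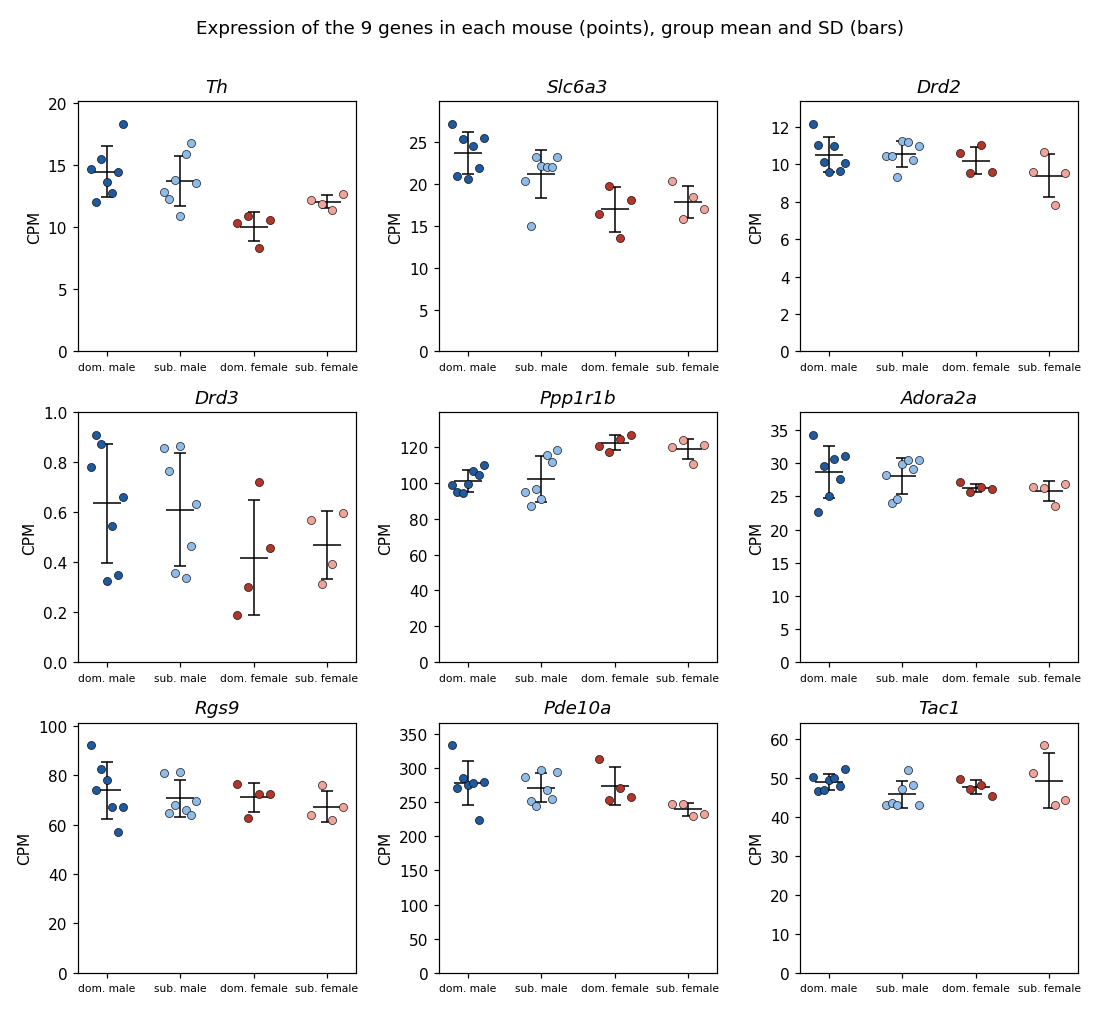
CPM of each of the 9 genes (linear axes from 0) in every mouse, by group; points are mice and bars the group mean with SD. Female Th and Slc6a3 lie mostly below the males, female Ppp1r1b mostly above, and dominant and submissive mice overlap in most panels.

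The first comparison asked whether rank went with the level of these genes in males. It did not pass the test for any of the 8 genes that had enough reads to be tested, Drd3 being too low, as for 0.0% of the 14737 genes tested. At an unadjusted p under 0.05 there were 0 of the 8, against 1.32% of all genes, and DESeq2 called 0 as well. With cage as a block in the edgeR fit, which pairs the mice, 0 were called and 2 of the 8 had an unadjusted p under 0.05, Slc6a3 and Tac1, against 2.29% of all genes. Without dominant male 1 the count of calls was also 0. No member had ranks that did not overlap, 0 of 8 against 0.00679% of genes.

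Among the supply genes, Th spanned 11.99 to 18.3 CPM with a median of 14.5 in dominant males, and 10.9 to 16.8 with a median of 13.6 in submissive males. Slc6a3 spanned 20.6 to 27.2 CPM (median 24.5) in dominant and 15.03 to 23.3 (median 22.1) in submissive males. The groups overlapped for both genes. Slc6a3 was higher in the dominant mouse in 5 of 7 cages and its log2 fold change was 0.17 ± 0.0870 (SE, adjusted p = 1.00, edgeR's quasi-likelihood test, Benjamini-Hochberg over all genes). With cage as a block it was 0.17 ± 0.0653 (SE, unadjusted p = 0.0230, adjusted p = 1.00 in edgeR). Without dominant male 1, the male with the most Slc6a3, it was 0.13, and without submissive male 2, the male with the least, it was 0.10.

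Of the receptors, Drd2 spanned 9.56 to 12.2 CPM in dominant and 9.30 to 11.2 CPM in submissive males, with a log2 fold change of -0.01 ± 0.0672 (SE). Drd3 spanned 0.324 to 0.911 and 0.336 to 0.864 CPM, with overlap, and had too few reads to be kept for the test. Without the filter on low counts its log2 fold change was 0.07 ± 0.284 (SE, adjusted p = 1.00 in edgeR).

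Of the projection neuron genes, Tac1 came nearest to the threshold. Its level was 46.7 to 52.5 CPM (median 49.5) in dominant and 43.2 to 52.2 CPM (median 43.6) in submissive males. The 2 ranges overlapped, and the dominant mouse had more Tac1 in 5 of 7 cages. The log2 fold change was 0.10 ± 0.0485 (SE, unadjusted p = 0.0568, adjusted p = 1.00 in edgeR's quasi-likelihood test). With cage as a block the unadjusted p of Tac1 was 0.0388 and the adjusted p again 1.00 in edgeR. Ppp1r1b, Adora2a, Rgs9 and Pde10a had log2 fold changes of -0.02 to 0.07, each overlapping between the ranks. Without dominant male 1 these 4 lay between -0.01 and 0.01, Adora2a and Pde10a having turned from positive to negative. Within male cages 1 to 4 alone the Ppp1r1b log2 fold change was 0.07, and within male cages 5 to 7 it was -0.11, neither called in edgeR.

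In females the same comparison again called 0 of the 8 tested genes, against 0.0942% of 14865 genes. At an unadjusted p under 0.05 there were 2 of the 8, Pde10a and Th, against 10.5% of all genes, and DESeq2 called 1, Pde10a, where it called 1.49% of the genes to which it gave an adjusted p. With cage as a block the same 2 genes had an unadjusted p under 0.05, against 10.3%. These 2 genes were also the members whose dominant and submissive females did not overlap, which held for 5.46% of all genes tested.

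Pde10a, which breaks down cyclic AMP and cyclic GMP in both kinds of projection neuron, was higher with high rank. Dominant females had 314, 254, 271 and 258 CPM in cages 1, 2, 3 and 4, and their submissive cage mates had 247, 248, 230.5 and 233 CPM. All 4 dominant females lay above all 4 submissive ones, though 254 and 248 CPM were close. The log2 fold change was 0.19 ± 0.05004 (SE, unadjusted p = 0.00134, adjusted p = 0.162 in edgeR's quasi-likelihood test, Benjamini-Hochberg over all genes). The same fold was called by DESeq2 (adjusted p = 0.0356) and without the filter on low counts (adjusted p = 0.0354). With cage as a block the edgeR adjusted p was 0.0690.

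The estimate of the Pde10a difference was smaller when 1 mouse was left out and when the trend with gene length was removed. Without dominant female 1 the Pde10a log2 fold change was 0.11 (adjusted p = 0.264 in edgeR). After each library's trend of counts with gene length was removed, it was 0.14 ± 0.0497 (SE, adjusted p = 0.483 in edgeR); Pde10a is long, with 8164 exon bases. It was 0.20 within the numbered cages and 0.18 within Gr1 and Gr2. Without submissive female 3 it was 0.17.

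Th ran the other way. Dominant females had 10.3, 10.9, 8.32 and 10.6 CPM in cages 1, 2, 3 and 4, against 12.2, 11.9, 11.4 and 12.6 CPM in their submissive cage mates. All 4 dominant females lay below all 4 submissive ones. The log2 fold change was -0.27 ± 0.0902 (SE, unadjusted p = 0.00816, adjusted p = 0.276 in edgeR's quasi-likelihood test), and it did not pass the threshold under any alternative that gave it an adjusted p. It was -0.18 within the numbered cages and -0.36 within Gr1 and Gr2, and -0.19 without dominant female 3, the mouse with the least Th.

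For Slc6a3 the ranks overlapped in females. Its values were 16.5, 19.8, 13.6 and 18.2 CPM in dominant and 20.4, 15.9, 18.4 and 17.05 CPM in submissive females, in the same cage order. The dominant mouse was higher in 2 of 4 cages, and the log2 fold change was -0.08 ± 0.0982 (SE). Drd2, Ppp1r1b, Adora2a, Rgs9 and Tac1 also overlapped between the ranks, with log2 fold changes from -0.06 (Tac1) to 0.11 (Drd2). Without submissive female 3 that of Tac1 was -0.11 and that of Drd2 was 0.03, while Rgs9 went from 0.07 to 0.03, Ppp1r1b from 0.03 to 0.002 and Adora2a from 0.02 to -0.02, none of them called in edgeR. Within the numbered cages and within Gr1 and Gr2, in turn, the log2 fold change of Tac1 was -0.18 and 0.08. Likewise Drd2 gave -0.01 and 0.23, Rgs9 -0.01 and 0.15, Ppp1r1b -0.03 and 0.10, and Adora2a 0.0004 and 0.04, none called in edgeR. Tac1 in submissive females ranged from 43.2 to 58.5 CPM, wider than the 45.6 to 49.7 CPM of dominant females.

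Other genes of the dopamine neuron were then set beside Th. Of 14 further dopamine neuron genes tested by rank in females, 0 were called, 3 had a positive log2 fold change and the median was -0.22, where the median over all genes was -0.002. Slc18a2, the vesicular transporter for dopamine and other monoamines, had the smallest p, with -0.62 ± 0.135 (SE, adjusted p = 0.0867 in edgeR's quasi-likelihood test). Markers of serotonin neurons also moved with rank in females, and such neurons use Slc18a2 too. Slc6a4, the serotonin transporter, fell by 1.77 on the log2 scale in dominant females (adjusted p = 0.0418 in edgeR), as did Tph2, the brain enzyme of serotonin synthesis (adjusted p = 0.0418 in edgeR). Both were called in edgeR with cage as a block (adjusted p = 0.00759 for Slc6a4 and 8.96e-05 for Tph2). With the block and the length trend removed together they were called too (0.00552 and 4.50e-05 in edgeR). The same held without the filter, within the numbered cages and within Gr1 and Gr2. Neither was called in edgeR with the length trend removed and no block (adjusted p = 0.0591 for Slc6a4 and 0.0628 for Tph2), in a fit of all 22 libraries (0.995 for both), or without dominant female 3 or 4 or submissive female 1 or 3 (0.0874 to 0.140 over both genes). The summed level of 3 serotonergic markers was 2.29 to 10.5 CPM in dominant and 9.48 to 27.2 CPM in submissive females. What part serotonin neurons had in the Th values or in the median of the dopamine neuron list was not tested.

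Some noradrenergic, olfactory bulb and hypothalamic neurons also make Th, and no marker of these lists passed the test. The olfactory bulb and hypothalamic lists stand for tissue content and not for the neurons there that make Th. Noradrenergic markers summed to 3.27 to 5.69 CPM in dominant and 5.45 to 5.99 CPM in submissive females, with 0 of 3 tested called and 0 of 3 positive (median log2 fold change -0.18). Olfactory bulb markers summed to 7.48 to 10.7 and 8.45 to 15.6 CPM, also with 0 of 3 called and 0 of 3 positive (median -0.20). Hypothalamic peptide markers summed to 21.9 to 48.3 CPM in dominant and 42.7 to 49.6 CPM in submissive females, with 0 of 4 called and 0 of 4 positive (median log2 fold change -0.31). Choroid plexus markers, which do not belong to neurons, had 0 of 4 called and 0 of 4 positive too (median -0.27), with sums of 679 to 835 against 648 to 983 CPM. Their part in the Th values was not tested.

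For Pde10a the neighbouring genes are those of striatal projection neurons as a whole. Of 19 such genes tested in females, 0 were called, 17 had a positive log2 fold change and the median was 0.09. Foxp1, a transcription factor of striatal and cortical neurons, had the smallest p, with 0.16 ± 0.0443 (SE, adjusted p = 0.168 in edgeR). Of 6 cortical markers, 0 were called and 6 were positive, with a median of 0.16. The 8 direct pathway genes had a median of -0.01 and the 6 indirect pathway genes a median of 0.03, with 0 called in each list, as in the list of 7 genes of dopamine breakdown and its cofactor.

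**Figure D2:**
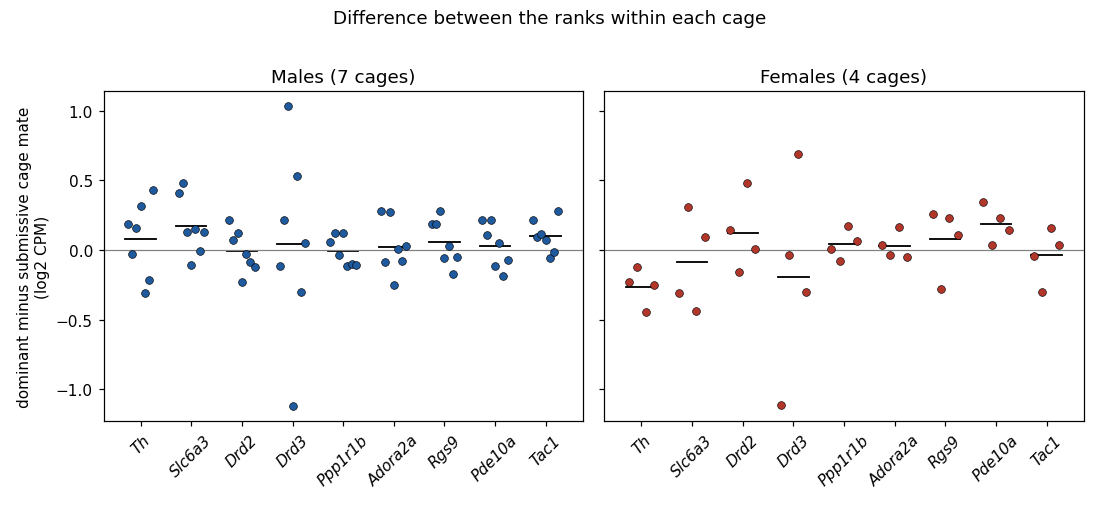
Log2 CPM of the dominant minus the submissive mouse of each cage, for each gene; points are cages and bars their mean. In females all 4 cages lie below 0 for Th and above 0 for Pde10a, and in males the points of every gene lie on both sides of 0.

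Over both sexes together, with sex as a term, rank called 0 of the 9 genes, against 0.0% of 15233 genes. Whether the rank difference itself differed between females and males was tested as an interaction, which also called 0 of 9, against 0.0%. At an unadjusted p under 0.05 there was 1 of 9 in the interaction, Th, against 3.32% of all genes, and 0 of 9 over both sexes, against 1.9%. DESeq2 called 0 in both. The Th interaction was -0.33 ± 0.154 (SE, unadjusted p = 0.0396, adjusted p = 0.999 in edgeR's quasi-likelihood test), so the female and male values of Th by rank were not shown to differ. That of Pde10a was 0.16 ± 0.104 (SE).

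The second comparison set females against males, averaged over rank. Both supply genes were lower in females, Ppp1r1b was higher, and the other 6 genes did not pass the test. These 3 of 9 called genes stand against 36.2% of 15233 genes, so a call was no more frequent among the members than among genes at large. No member was without overlap between females and males, 0 of 9 against 6.11% of genes. The 3 remained called with DESeq2, with other size factors, without the expression filter, with the length trend removed and in each fit that left out 1 library. These fits had no cage term and took cage mates as independent, so the SE and p values rest on mice and not on cages.

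Th was 11.03 ± 1.35 CPM in females (SD, n = 8) and 14.1 ± 2.00 CPM in males (SD, n = 14). The lowest, median and highest values were 8.32, 11.1 and 12.6 CPM in females and 10.9, 13.7 and 18.3 CPM in males. The groups overlapped, with the female higher in 7 of 112 female and male pairs. The log2 fold change was -0.36 ± 0.0768 (SE, adjusted p = 0.000592, edgeR's quasi-likelihood test, Benjamini-Hochberg over all genes).

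Slc6a3 differed by as much. Females had 13.6 to 20.4 CPM with a median of 17.6, and males 15.03 to 27.2 CPM with a median of 22.1. The female was again higher in 7 of 112 pairs, and the log2 fold change was -0.36 ± 0.0753 (SE, adjusted p = 0.000448 in edgeR). The low end of the males was submissive male 2, at 15.03 CPM.

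Ppp1r1b went the opposite way, with 110.6 to 127 CPM (median 121) in females and 87.2 to 118.5 CPM (median 99.1) in males. The female was higher in 108 of 112 pairs, and the log2 fold change was 0.25 ± 0.0476 (SE, adjusted p = 0.000218 in edgeR). Drd2 had -0.11, Drd3 -0.49, Adora2a -0.13, Rgs9 -0.06, Pde10a -0.10 and Tac1 0.03 as log2 fold changes, none of them called. For Drd3, with 3 to 12 reads, the SE was 0.249 (adjusted p = 0.131 in edgeR).

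Because male cages 5 to 7 differed from male cages 1 to 4, females were also set against each male cage set alone. Th was lower in females against both, by -0.26 (adjusted p = 0.00279) and -0.48 (adjusted p = 0.000106) on the log2 scale in edgeR, for the earlier and the later cages in turn. Slc6a3 gave -0.32 (adjusted p = 0.00514) and -0.41 (adjusted p = 0.000142) in edgeR. Ppp1r1b gave 0.35 (adjusted p = 3.13e-09) and 0.12 (adjusted p = 0.00471) in edgeR. All 3 genes thus kept their direction and their call, with different sizes.

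Other members were called against 1 male set. Against the earlier cages Rgs9 was lower in females by -0.17 (adjusted p = 0.0210 in edgeR), Pde10a by -0.13 (adjusted p = 0.0339) and Drd3 by -0.70 (adjusted p = 0.0419), which made 6 of 9, where 46.1% of all genes were called. Against the later cages Adora2a was lower by -0.20 (adjusted p = 0.00110 in edgeR) and Rgs9 was 0.08 and not called, which made 4 of the 8 tested, Drd3 being too low there, where 27.4% of all genes were called.

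The wider dopamine neuron list did not move one way between females and males. Of 14 tested genes, 7 were called, 3 higher and 4 lower in females, where 36.2% of all genes were called in either direction. The list median was 0.01. Chrnb3 and Chrna6, nicotinic receptor subunits of dopamine terminals, gave -0.48 (adjusted p = 0.000645 in edgeR) and -0.32 (adjusted p = 0.00983), and Slc18a2 gave -0.41 (adjusted p = 0.0135). Nr4a2, a transcription factor of dopamine neurons that cortical neurons also express, was higher by 0.41 (adjusted p = 0.000148 in edgeR).

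Among 7 breakdown and cofactor genes, 4 were called higher and 1 lower in females, where 36.2% of all genes were called in either direction. Spr, an enzyme of the cofactor that Th needs, was lower by -0.19 (adjusted p = 0.000692 in edgeR). Of markers of other neurons and regions with Th, 0 of 3 noradrenergic ones were called, with sums of 3.27 to 5.99 CPM in females and 4.64 to 7.36 CPM in males. The olfactory bulb marker Doc2g was lower by -0.52 (adjusted p = 0.0459 in edgeR), 1 of 3 tested, with list sums of 7.48 to 15.6 CPM against 6.81 to 21.9 CPM. Hypothalamic peptide markers had 0 of 4 called, with sums of 21.9 to 49.6 CPM against 37.1 to 56.6 CPM. Slc6a4 was lower by -1.03 (adjusted p = 0.0408 in edgeR), with serotonergic sums of 2.29 to 27.2 CPM against 3.09 to 34.4 CPM. What part these had in the Th and Slc6a3 values was not tested.

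Beside Ppp1r1b, the striatal genes shared by both pathways had 9 of 19 called, 7 higher and 2 lower in females, with a list median of -0.0004. Over all genes 36.2% were called in either direction, which is the share to set beside each list here. Rasd2, a small G protein of the striatum also called Rhes, was higher by 0.62 (adjusted p = 3.56e-09 in edgeR) and Meis2 by 0.47 (adjusted p = 1.04e-08). Of pathway genes, Penk, the enkephalin precursor of indirect pathway neurons, was higher by 0.35 (adjusted p = 4.07e-08 in edgeR) while Gpr6 and Gprin3 of the same list were lower, and Pdyn, the dynorphin precursor of the direct pathway, was higher by 0.25 (adjusted p = 0.00292), 1 of 8. Markers outside the striatum also differed: 3 of 6 cortical markers were called, Cux2 higher by 0.47 (adjusted p = 5.48e-07 in edgeR), Neurod6 higher by 0.14 (adjusted p = 0.0196) and Rorb lower by -0.15 (adjusted p = 0.0102). Snap25, which neurons share, was higher by 0.45 (adjusted p = 3.68e-11 in edgeR).

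**Figure D3:**
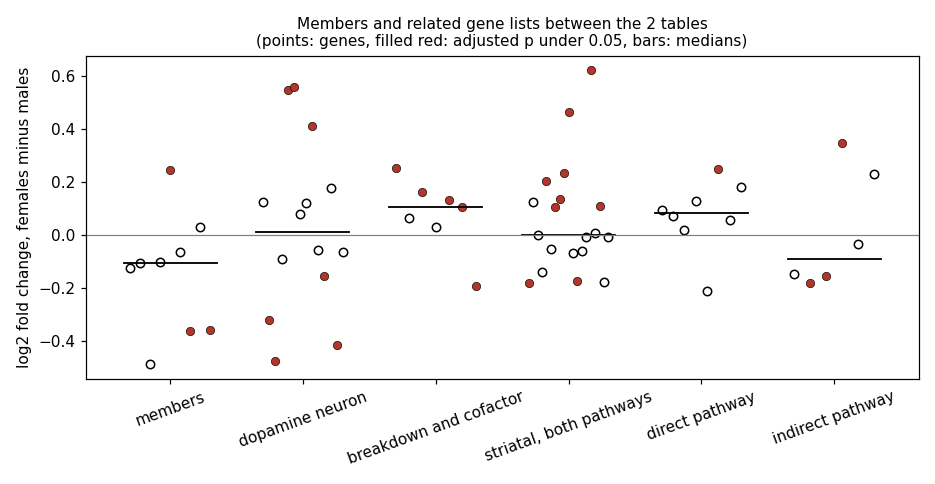
Log2 fold change of females minus males for the 9 members and 5 related gene lists; each point is a gene, filled red where the adjusted p was under 0.05, and bars are medians. Called genes lie on both sides of 0 in the members and in the dopamine neuron and striatal lists.

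**Figure D4:**
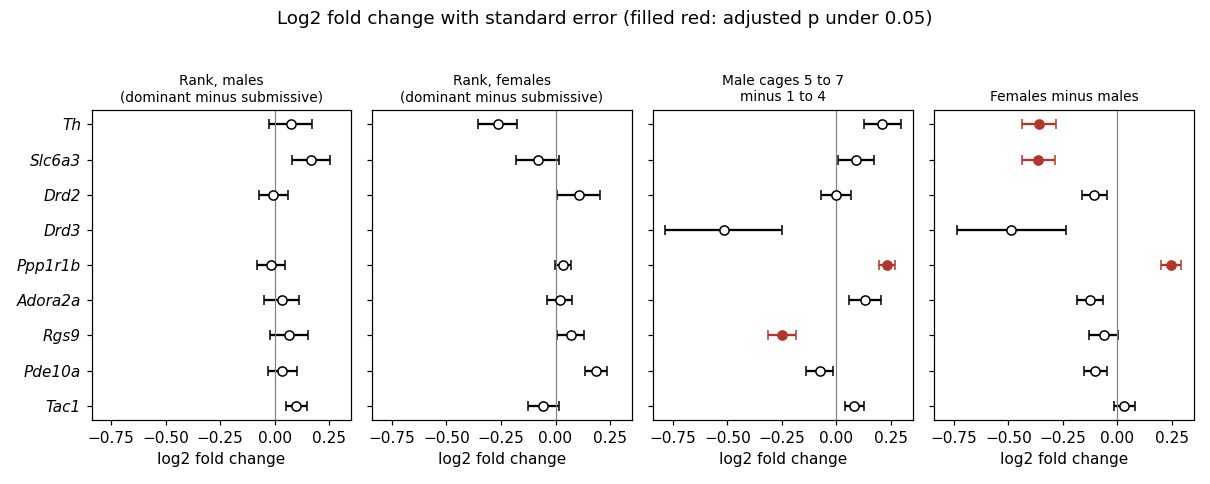
Log2 fold change with standard error for each gene in 4 comparisons, filled red where the adjusted p was under 0.05. No gene is called by rank, 2 are called between the male cage sets (Ppp1r1b 0.23, Rgs9 -0.25) and 3 between females and males.

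The third comparison was between cages. Male cages 5 to 7 (the later by number) against 1 to 4 (the earlier), with rank as a term, called 2 of 9 members, Ppp1r1b higher and Rgs9 lower in the later cages, against 27.2% of 15154 genes. At an unadjusted p under 0.05 there were 3 of 9, with Th, against 38.4%. The cage set varies only between cages, yet the fit took each male as independent. Deviations of male cage mates correlated by 0.177 on average, so the SE and p values rest on mice and not on cages. Nothing in the labels says how these cages differed besides their numbers. Since the split was taken from earlier results of these data, its tests describe these cages.

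Ppp1r1b was 94.3 to 99.3 CPM in dominant and 87.2 to 96.5 CPM in submissive males of the earlier cages. In the later cages dominant males had 106.6, 104.6 and 109.9 CPM and submissive males 115.5, 111.9 and 118.5 CPM. All 6 later males lay above all 8 earlier ones, as was the case, in either direction, for 8.52% of genes. The log2 fold change was 0.23 ± 0.0362 (SE, adjusted p = 0.000127 in edgeR's quasi-likelihood test), and 0.20 with the length trend removed (adjusted p = 0.000731 in edgeR).

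Rgs9 was 92.1, 73.8, 82.5 and 78.1 CPM in the dominant and 80.9, 64.8, 67.8 and 81.2 CPM in the submissive males of cages 1 to 4. In cages 5 to 7 the dominant males had 67.3, 56.9 and 67.3 CPM and the submissive males 65.9, 64.0 and 69.7 CPM. The sets overlapped, with the later male higher in 5 of 48 pairs. The log2 fold change was -0.25 ± 0.0638 (SE, adjusted p = 0.00651 in edgeR), but -0.10 and not called with the length trend removed (adjusted p = 0.287 in edgeR). Rgs9 has 8530 exon bases, the most of the 9 genes.

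Leaving out dominant male 1 brought the count to 4 of 9, and that over all genes to 31.4%. Ppp1r1b then gave 0.24 and Rgs9 -0.22 on the log2 scale, and Adora2a with 0.19 (adjusted p = 0.0238 in edgeR) and Th with 0.23 (adjusted p = 0.0471) were called as well. With that mouse in the fit, Th was 0.21 ± 0.0843 (SE, adjusted p = 0.0708 in edgeR) and Adora2a 0.13 ± 0.0743. Slc6a3, Drd2, Pde10a and Tac1 had log2 fold changes of -0.08 to 0.09, and Drd3 -0.52 ± 0.268, none called.

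Of related genes, 5 of 19 shared striatal genes were called, all higher in the later cages, which is about the 27.2% of all genes called in either direction. Among them were Scn4b, a sodium channel subunit, higher by 0.15 (adjusted p = 0.00570 in edgeR), and Rasd2, higher by 0.22 (adjusted p = 0.0132), with a list median of 0.04. Penk was higher by 0.12 (adjusted p = 0.0163 in edgeR), Gprin3 lower by -0.13 (adjusted p = 0.0454) and Eya1 lower by -0.25 (adjusted p = 0.0253). Of 14 dopamine neuron genes 0 were called, as was true of the 2 supply genes, while 3 of 7 breakdown and cofactor genes were higher. Markers of other tissue moved too: Cldn5, of brain endothelium, was higher by 0.50 (adjusted p = 1.12e-05 in edgeR), Fibcd1, of the hippocampus, by 0.30 (adjusted p = 0.000115). Of 4 thalamic markers 3 were called, Tcf7l2 lower by -0.49 (adjusted p = 0.000121 in edgeR) but Ramp3 higher by 0.32 (adjusted p = 0.00449) and Prkcd higher by 0.22 (adjusted p = 0.00419), with a list median of -0.0004. Their part in the Ppp1r1b and Rgs9 values was not tested.

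**Figure D5:**
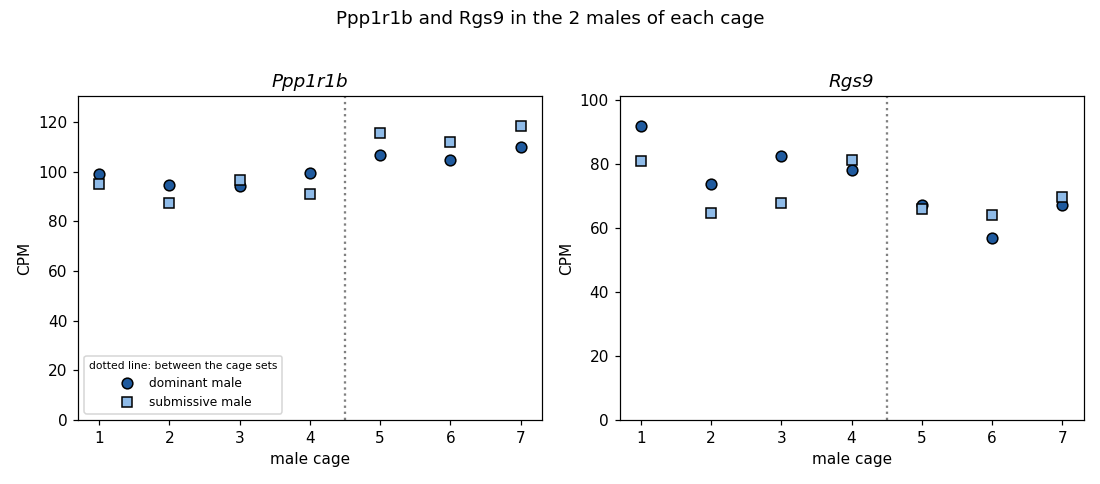
CPM of Ppp1r1b and Rgs9 (linear axes from 0) in the dominant (circles) and submissive (squares) male of each cage, with a dotted line between the cage sets. Ppp1r1b is higher in all 6 males of cages 5 to 7, and Rgs9 is mostly lower there.

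Taken cage by cage over all 7 male cages, with rank as a term, Ppp1r1b (adjusted p = 0.0419) and Rgs9 (adjusted p = 0.0354) were called in edgeR's quasi-likelihood test, 2 of 8 against 5.89% of 14737 genes. DESeq2 called 3, with Pde10a, where it called 10.1% of the genes to which it gave an adjusted p. On simulated data this test over single male cages made more false calls than its threshold allows, which bears on the 2 calls and on the 5.89% alike. Neither edgeR call was firm. With the length trend removed 0 members were called, and over the fits that left out 1 male the count ran from 0 to 4, being 0 without dominant male 2, 5, 6 or 7 or without submissive male 2, 4, 5 or 7, 1 without dominant male 3 or submissive male 3 or 6, and 4 without submissive male 1. Over all genes the same fits called 381 to 2102, the most also without submissive male 1, against 868 with every male.

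Females of groups Gr1 and Gr2 and of the numbered cages were compared in the same way. Of the 8 tested genes 0 were called, against 0.00659% of 15177 genes, with 2 at an unadjusted p under 0.05 against 5.51% and 0 called by DESeq2. Tac1 had the smallest p, with 49.7, 47.3, 51.3 and 58.5 CPM in the numbered cages and 48.3, 45.6, 43.2 and 44.5 CPM in the groups. The sets overlapped in 1 of 16 pairs, so 0 of 8 members were without overlap against 2.89% of genes, and the log2 fold change was -0.19 ± 0.0570 (SE, unadjusted p = 0.00387, adjusted p = 0.703 in edgeR). Over single female cages 0 of 8 were called, against 0.074%, with 2 of 8 at an unadjusted p under 0.05, against 5.11%, and 0 called by DESeq2.

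Pairs of members were compared over mice. The male cage sets differed in level, so values over all males mix differences between and within the sets. Over the 14 males, 1 of 36 pairs of members passed the permutation test of Pearson's r after adjustment over the pairs: Rgs9 and Pde10a, with r = 0.86 (permutation p = 0.00012, adjusted p = 0.00432) and Spearman's rho = 0.80 (permutation p = 0.00109, adjusted p = 0.0392). Without the 2 mice farthest from the median of Rgs9, r was 0.66. Within the cage sets it was 0.96 over the 8 earlier males (exact permutation p = 0.000521, adjusted p = 0.0188) and 0.99 over the 6 later ones (exact permutation p = 0.00139, the smallest that 6 mice allow, with an adjusted p of 0.05 that is not under the threshold). Cage mates share a cage and a day, so the mice are not fully independent. Rgs9 and Pde10a have the most exon bases of the members (8530 and 8164), and no length trend was removed from the correlated values. What part gene length had in their r was not tested. Slc6a3 and Adora2a passed by rho alone (rho = 0.77, permutation p = 0.00227, adjusted p = 0.0409; r = 0.68, permutation p = 0.00494, adjusted p = 0.0593). Th and Slc6a3 had r = 0.45 (permutation p = 0.104, adjusted p = 0.231).

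Of the 10 pairs among the 5 projection neuron genes, 5 had a higher r within both sets than over all males, and of those 5 pairs Rgs9 and Pde10a alone passed after adjustment, in the earlier males. Adora2a and Rgs9 had r = 0.26 over all males, but 0.86 over the earlier (exact permutation p = 0.00578, adjusted p = 0.0693) and 0.94 over the later males (exact permutation p = 0.0181, adjusted p = 0.217). Adora2a and Pde10a had 0.57 over all, 0.87 over the earlier (exact permutation p = 0.00409, adjusted p = 0.0693) and 0.93 over the later males (exact permutation p = 0.0167, adjusted p = 0.217). Without the 2 mice farthest from the median of Adora2a, these values in the later males were -0.12 with Rgs9 and -0.03 with Pde10a, and so rest on those mice. Ppp1r1b and Rgs9 had r = -0.42 over all males, and within the sets 0.54 (exact permutation p = 0.172, adjusted p = 0.380) and 0.66 (exact permutation p = 0.146, adjusted p = 0.477), which without the 2 mice farthest from the median of Ppp1r1b were 0.18 and -0.54. In the later males the r of Tac1 with Ppp1r1b, Adora2a, Rgs9 and Pde10a lay between -0.36 and 0.26, but between 0.24 and 0.71 without the 2 mice farthest from the median of the other gene, so that over 6 mice its sign was not settled. Of the 36 pairs, 1 passed in the earlier and 0 in the later males, while 31 and 27 were positive, with a median r of 0.49 and 0.38, against 26 and 0.42 over all males.

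Over the 8 females 0 of 36 pairs passed. Th and Slc6a3 had r = 0.65 (exact permutation p = 0.0842, adjusted p = 0.320) and rho = 0.43 (exact permutation p = 0.299, adjusted p = 0.560), and r was 0.23 without the 2 mice farthest from the median of Th. Drd2 and Rgs9 had the smallest p, with r = 0.79 (exact permutation p = 0.0121, adjusted p = 0.307) and rho = 0.88 (exact permutation p = 0.00724, adjusted p = 0.251), and r was 0.85 without the 2 mice farthest from the median.

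Genes outside the 9 were ranked by likeness over all 22 libraries, with the mean of each sex removed, as a description. The mean log2 CPM of Drd2, Ppp1r1b, Adora2a, Rgs9, Pde10a and Tac1 was most like that of Kcnq5, a potassium channel subunit (r = 0.92), followed by Syt1 (0.87), Lppr4 (0.86), Lmo7 (0.86) and Gng7 (0.86). The mean of Th and Slc6a3 was most like Pmch, the precursor of a hypothalamic peptide (0.80), then Ntpcr, Acot1, Fam174a and Rnf114 (each 0.77). Drd3 was most like Unc45a (0.87), 9330117O12Rik (0.76), Dhx37 (0.74), Efr3b (0.74) and Zfp532 (0.72), at a depth where Drd3 itself varied about as much as counting does. The 22 libraries differed in depth and in markers of other tissue, and what part these had in the r values was not tested.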

How the data were processed

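RNA of 22 right hemispheres was sequenced after rRNA depletion with a stranded kit. The authors trimmed the reads (cutadapt 1.15), aligned them with STAR 2.6.0a on mm10, and deposited raw counts per gene from featureCounts 1.6.2, per the labels, in 1 table for males and 1 for females. No column was left without a sample. Groups and replicate numbers came from the sample titles and cages from the library names.

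From the deposited counts, CPM were computed with TMM factors (edgeR 4.0.16, R 4.3.3), and log2 CPM for correlations with a prior count of 2. Genes were kept by edgeR's filter (minimum count 10, minimum total 15). Each comparison used edgeR's quasi-likelihood test on all genes kept, with p adjusted by Benjamini-Hochberg and called under 0.05. The tests were tested on simulated data, where that over single male cages made more false calls than its threshold allows. Alternatives were DESeq2 1.42.0, its size factors, no filter, removal of each library's loess trend (span 0.3) on gene length, cage as a block, all 22 libraries in 1 fit, leaving out each library, and, chosen after seeing the data, fits and correlations within cage sets. Cages in the library names and joint killing pair the mice. Deviations from group means correlated by 0.177 on average between male cage mates (-0.0345 to 0.274) and 0.0241 between female ones. The 54 pairs of libraries within groups differed beyond sampling noise (mean chi-square per gene 1.77 to 15.7).

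The 9 members and all gene lists were chosen with earlier results of these data known. Besides members, genes were named where called in a comparison, at most 4 a list by smallest p, otherwise the gene of smallest p. Some called genes of the lists are not reported here. Spread from counting covers counting error only, while SD and SE cover the spread between mice. Each library is 1 mouse.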

Additional observations from a re-analysis of the deposited data

Results flagged for a closer look

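Slc6a3 in submissive male 2 was 15.03 CPM, while the other 6 submissive males lay between 20.4 and 23.3 CPM. Its gap to the nearest mouse was 0.65 of the range of the group. This was 1 outlying value among 36 combinations of a member and a group, and chance flags about 1 in 20 such groups.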

How the results depend on the processing

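Over 1568 values of single members under an alternative, 0 were called with the opposite sign, 22 lost a call and 19 gained one, and 92 changed sign without a call in either fit. By rank in females, 1 member (Pde10a) was called with DESeq2 and 1 without the expression filter. Over all genes that comparison called 14 in edgeR, 78 with DESeq2, 84 without the filter, 36 with the cage block, 8 with the block and the length trend removed, 0 with the length trend removed and 0 in a fit of all 22 libraries; leaving out single females gave 0 to 77. Within the numbered cages 5 were called and within the groups 120, in fits chosen after seeing the data. Pairing by cage as a block called 0 members by rank in males, in females, over both sexes and in the interaction, as without it. Against male cages 1 to 4 only, 6 members were called in females against males, and 46.1% of all genes in place of 36.2%. With the length trend removed, 1 member was called between the male cage sets and 0 between single male cages. Over all genes the former called 3240 in place of 4125 and the latter 557 in place of 868. Leaving out 1 library gave 2 to 4 members between male cage sets and 0 to 4 between single male cages. Over all genes these fits called 3413 to 4747 and 381 to 2102 in turn. Over all genes single female cages called 11, 5 with DESeq2 and 99 without the filter, and female cage sets called 1, 2 with DESeq2, 2 with the length trend removed and 20 without the filter. With group means removed, 3 pairs of members correlated in males, within male cages 1 to 4 alone 1 and within male cages 5 to 7 alone 0, and leaving out 1 female gave 0 to 1 pair in females. At 3 to 12 reads per library, depth limits every statement on Drd3.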
